A study of Drosophila melanogaster with 2 samples.

Results

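Within introns of Drosophila melanogaster genes, 387 ChIP-seq peaks of the CG11398-eGFP protein had their summit close to a transcription start site (TSS), but outside promoters and exons. They were taken from a list of 2712 peaks in dm6, of which they make up 14.3%. A peak was included when its summit, the position of highest signal, was inside an annotated gene, in no annotated exon, and 501 to 2000 bp from the nearest TSS of any gene. Signal strength played no role in the choice. Only the summit was placed in this way: 36 of the 387 regions (9.30%) reached into an exon and 77 (19.9%) to within 500 bp of a TSS. The rest of the list held 1468 promoter peaks with a summit within 500 bp of a TSS, 489 intronic peaks more than 2000 bp from one (called distal here), 297 intergenic peaks and 71 exonic peaks.

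The peaks came from chromatin immunoprecipitation with sequencing (ChIP-seq), in which DNA bound by a protein is pulled down with an antibody and sequenced. The flies were of the transgenic line CG11398-GFP, which stably makes the CG11398 protein with GFP at its C terminus, and the antibody was against GFP. All material was 1 group: whole embryos 0 to 24 h old, male and female together, in 2 biological replicates numbered 1 and 3. No second genotype, treatment or stage was part of the series, and no control library was analysed here. Without one, binding of the protein cannot be told apart from signal that accessible chromatin can give in any pull-down, and a peak below is a region of called signal. Whole embryos of all these ages hold every embryonic tissue, so signal from more nuclei and stronger signal in each nucleus cannot be told apart. The lists hold no read counts, so read depth is unknown. Each peak carries a signal value set by the authors' peak calling, with no stated unit or normalization. It is used here to rank and describe peaks, and replicate values are given as deposited.

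Introns are cut out of the transcript, but their DNA can carry regulatory elements. In flies the first intron, which follows the first exon of a transcript, is often long and often holds enhancers, stretches of DNA that raise transcription from a promoter at a distance. Many developmental genes also have several promoters, so that the DNA before an inner TSS lies in an intron of the longer transcripts. A peak near a start site but outside the promoter can therefore lie downstream of the TSS of its host, which is the gene that contains it, or upstream of an inner one.

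The sequences around the 5 strongest of these summits are given first, since the largest signals lie there. Each is 201 bases of the plus strand of the Release 6 (dm6) genome, centred on the summit, and capitals mark the Forkhead core TGTTTAC or its reverse complement, the short sequence recognised by Forkhead transcription factors. ush encodes a zinc-finger cofactor of GATA factors. Its peak was the strongest of the whole list, with a summit in intron 1 at -1399 bp from the TSS of the neighbouring gene cbt, the gene of a transcription factor with zinc fingers (negative distances are upstream). Lk6 encodes a protein kinase that acts on the translation factor eIF4E. Its summit was in intron 1, at -982 bp from an inner TSS of Lk6. The CG11050 summit was in intron 2, only 140 bp long, at 1018 bp from a TSS of CG11050. cno encodes Canoe, a scaffold of adherens junctions, and its summit was in intron 1 at 1933 bp. The CG9663 summit was in intron 1 at 958 bp.
ush, chr2L:480987-481187: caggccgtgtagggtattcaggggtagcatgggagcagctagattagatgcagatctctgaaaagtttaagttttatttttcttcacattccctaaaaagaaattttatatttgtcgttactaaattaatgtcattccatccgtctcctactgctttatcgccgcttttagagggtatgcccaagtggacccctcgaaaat
Lk6, chr3R:11760961-11761161: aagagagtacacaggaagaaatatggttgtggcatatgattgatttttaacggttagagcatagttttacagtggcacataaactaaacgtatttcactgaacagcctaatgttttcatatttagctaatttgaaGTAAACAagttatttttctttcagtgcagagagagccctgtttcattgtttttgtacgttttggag
CG11050, chr2L:6612605-6612805: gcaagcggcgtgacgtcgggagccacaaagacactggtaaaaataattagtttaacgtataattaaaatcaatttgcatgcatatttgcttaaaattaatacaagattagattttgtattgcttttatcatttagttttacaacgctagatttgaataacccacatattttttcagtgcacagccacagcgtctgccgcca
cno, chr3R:5215423-5215623: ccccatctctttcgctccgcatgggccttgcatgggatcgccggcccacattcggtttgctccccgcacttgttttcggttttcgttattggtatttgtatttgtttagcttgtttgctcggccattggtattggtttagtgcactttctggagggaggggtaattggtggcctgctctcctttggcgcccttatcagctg
CG9663, chr2L:3302072-3302272: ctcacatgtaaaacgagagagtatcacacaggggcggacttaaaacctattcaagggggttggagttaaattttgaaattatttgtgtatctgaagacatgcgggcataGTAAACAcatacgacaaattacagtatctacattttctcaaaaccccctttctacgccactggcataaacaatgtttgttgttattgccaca

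These windows differ in base composition. GC content was 40.3% at ush, 33.8% at Lk6, 35.3% at CG11050, 52.2% at cno and 38.8% at CG9663. The windows of Lk6 and CG9663 hold 1 copy each of the Forkhead core, and the other windows hold none. At CG9663 the copy is within 50 bp of the summit, as it is at Lk6, where it lies to the right of it.

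Signal values among the 387 peaks ran from 79.8 to 1410, with a median of 114.9 and quartiles at 93.3 and 166. The distal intronic peaks had a median of 115.6, the promoter peaks of 115.5 and the whole list of 115.1, so the middle of the distribution sat at the same level in each class. The strongest near-start intronic peak reached 1410, the strongest promoter peak 1326, the strongest intergenic peak 921 and the strongest distal intronic peak 599. Upper quartiles were 166 for near-start intronic, 165.5 for promoter and 149.9 for distal intronic peaks, so near-start introns and promoters were alike at the upper end. Of the 25 strongest peaks of the whole list, 6 were near-start intronic, and of the 100 strongest, 21. Of the 387, 102 (26.4%) were in the upper 25% of the list.

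Both replicates gave a high signal at the leading peaks. The ush peak had 827 in replicate 1 and 589 in replicate 3. At Lk6 it was 567 in replicate 1 and 553 in replicate 3, and at CG11050 557 in replicate 1 and 456 in replicate 3. Lk6 was thus nearly level, while at ush replicate 1 was clearly above replicate 3. The cno peak had 507 in replicate 1 and 366 in replicate 3. At CG9663 replicate 3 was slightly higher, with 362 in replicate 1 and 383 in replicate 3. The remaining 20 of the 25 strongest ran from 674 at CG32772 to 329 at Csk, which encodes the kinase that inhibits Src kinases. Among them were the insulin receptor gene InR at 506 (296 in replicate 1 and 215 in replicate 3) and Trl at 445 (222 in replicate 1 and 223 in replicate 3). Trl encodes GAGA factor, a DNA-binding protein that opens promoter chromatin. Others were Adf1 at 526, a Myb-related transcription factor gene, wde at 423, whose product is a cofactor of the histone methyltransferase Eggless, and Zw at 392, the gene of glucose-6-phosphate dehydrogenase. Genes of signalling enzymes stood there too, with for, the cGMP-dependent protein kinase, at 384, and norpA, the phospholipase C of phototransduction, at 381. mub, which encodes a KH-domain RNA-binding protein, had 373. The rest were CG31635 (566), NFAT (492), CG3726 (448), HmgD (417), LPCAT (416), Reph (415), CG9837 (402), Hyls1 (393), sick (370) and l(2)k01209 (349).

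**Figure D1:**
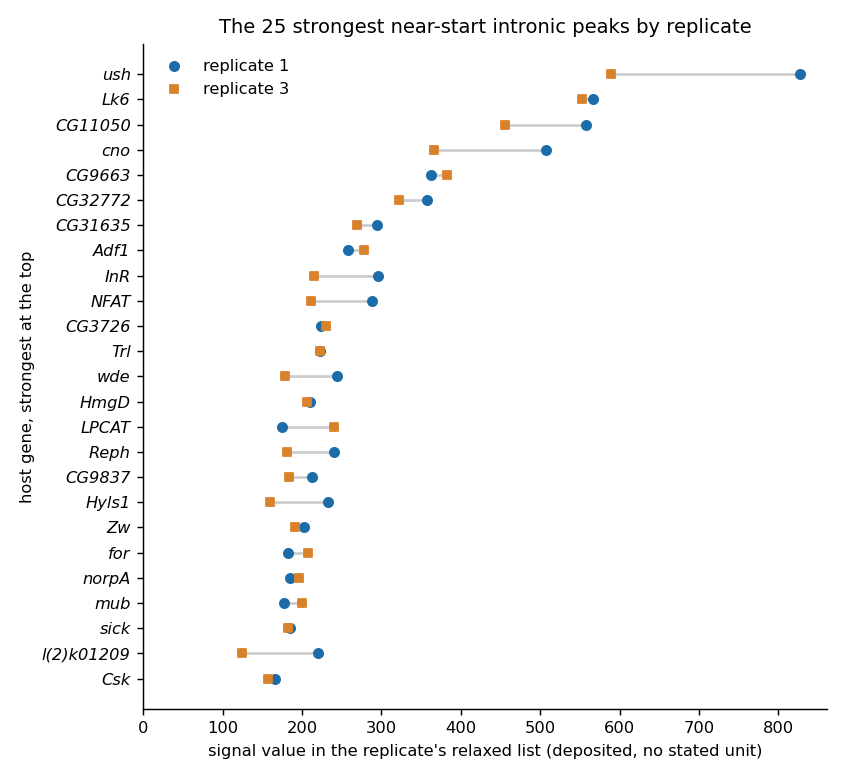
Replicate signals, with no stated unit, of the 25 strongest near-start intronic peaks, named by host gene; circles are replicate 1 and squares replicate 3. The symbols lie close together at Lk6 and Trl and far apart at ush, where replicate 1 stood at 827 and replicate 3 at 589.

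Across all 387 peaks, replicate 1 had the higher signal at 260 (67.2%), close to its share of 65.4% over the whole list. The log2 ratio of replicate 1 over replicate 3 had a median of 0.21 with an SD of 0.53. It was 0.27 at distal intronic peaks, 0.14 at promoter peaks and 0.18 over all peaks. The shift towards replicate 1 was thus present in each class, and the replicate values were not scaled to each other. At 353 peaks (91.2%) the replicates were less than 2-fold apart, against 92.7% of all peaks. Spearman's rho between the replicates was 0.629 over the 387 peaks and 0.626 over the other 2325 peaks. Peaks of 1 genome share their libraries and were selected on both replicates together, so this is a description and not a measure of reproducibility. Summits called separately in the replicates lay a median of 28 bp apart, and within 50 bp of each other at 287 peaks (74.2%, against 71.3% of all peaks).

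A few peaks were carried mostly by 1 replicate. The largest ratio in favour of replicate 1 was at fru, which encodes BTB zinc-finger transcription factors of sexual behaviour, with 96.4 in replicate 1 and 23.8 in replicate 3 (log2 ratio 2.02). COX7AL2 (1.51), siz (1.43), a gene for an Arf guanine nucleotide exchange factor, and CG6333 (1.40) followed. In the other direction, not, which encodes a ubiquitin protease of the SAGA complex, had 18.97 in replicate 1 and 65.3 in replicate 3 (log2 ratio -1.78). NK7.1, a homeobox gene, had -1.41, Cyt-c-p, a cytochrome c gene, -1.38, and spdi -0.99, the last of these just under 2-fold. These 8 peaks had signals between 80.4 and 135.6 in the thresholded list, so none was among the strongest. For 22 of the 387 peaks, a replicate region was shared with another peak, as at tou, zfh1 and mbc, so their replicate values are not separate measurements.

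**Figure D2:**
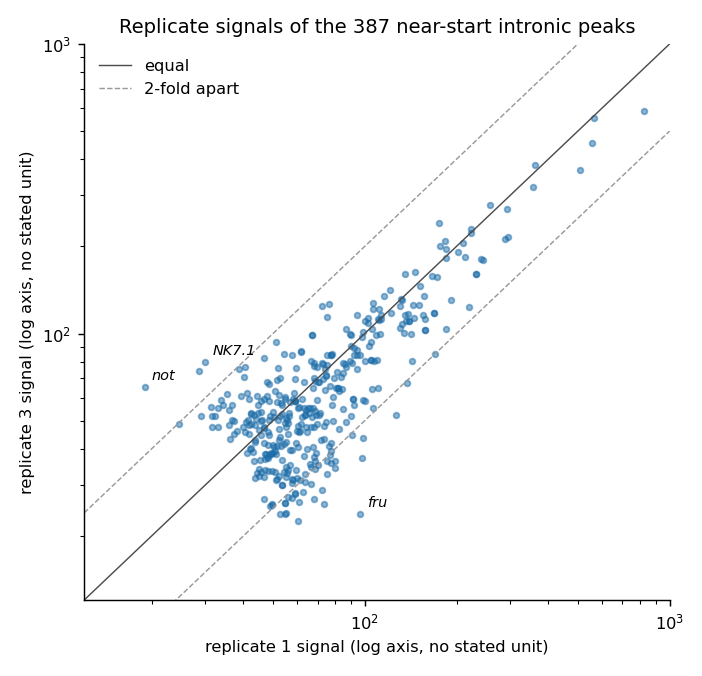
Signal in replicate 1 (horizontal) and replicate 3 (vertical) of the 387 near-start intronic peaks on log axes, with no stated unit; the solid line marks equal signals and dashed lines a 2-fold difference. Of the points, 353 lie between the dashed lines, and fru and not are among those farthest outside.

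The intronic sequence that could hold such a summit, 501 to 2000 bp from the nearest TSS and free of exons, came to 11.4 Mb, or 8.54% of the 6 chromosome arms. It held 33.9 peaks per Mb. For a comparison within the same sequence, the relaxed list of the pooled replicates was used, in which 30000 regions are kept so that most are weak. Of its near-start intronic regions, 476 of 3609 overlapped a peak (13.2%, exact Clopper-Pearson 95% interval 12.1 to 14.3). The share was 9.12% for distal intronic regions, 18.7% at promoters, 8.34% in intergenic sequence, 1.57% in exons and 11.2% over all 30000 regions. Near-start introns thus stood between promoters and distal introns. The other 3133 near-start intronic regions overlapped no peak, and they serve below as the weak regions of the same sequence. These intervals and all that follow cover counting error only, because regions are not replicates.

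The number of peaks per Mb fell with distance from the TSS. It was 43.5 per Mb at 501 to 750 bp, 36.1 at 751 to 1000 bp, 35.3 in the next bin up to 1250 bp, 29.2 at 1251 to 1500 bp, 29.1 at 1501 to 1750 bp and 25.5 at 1751 to 2000 bp. Weak regions also thinned out, with 309 per Mb in the nearest bin and 245 in the farthest. The share of regions that were peaks was 12.4% in the nearest bin and 9.43% in the farthest. Median signal did not follow distance: it was 120.1 in the nearest bin, 118.2 at 1251 to 1500 bp and 113.5 in the farthest.

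The decline was sharpest upstream of a TSS. At 501 to 1000 bp there were 50.5 peaks per Mb upstream of the nearest TSS (exact Poisson 95% interval 40.3 to 62.7) and 33.6 downstream (27.1 to 41.2), with intervals that overlapped slightly. From there to 1500 bp the order was turned, with 29.1 upstream and 34.1 downstream, and at 1501 to 2000 bp the values were 29.9 upstream and 26.1 downstream. In the 2 farther bins the intervals of the 2 sides overlapped widely. Weak regions showed no such excess upstream, with 295 per Mb upstream and 305 per Mb downstream in the bin nearest to the TSS.

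**Figure D3:**
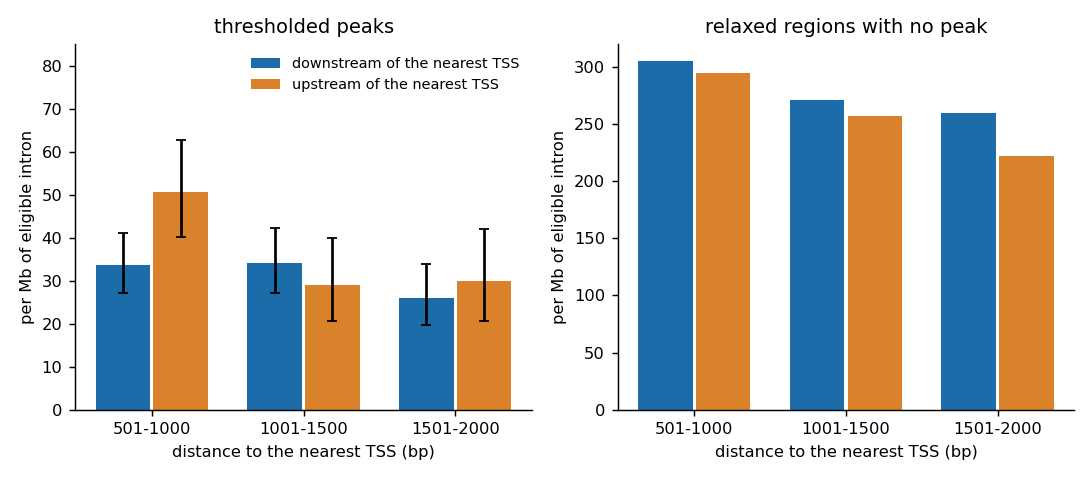
Density per Mb of eligible intron (501 to 2000 bp from a TSS, free of exons) of peaks, left, and of relaxed regions that overlap no peak, right, by distance to the nearest TSS and side; error bars on the peaks are exact Poisson 95% intervals. The tallest bar among the peaks is the upstream one at 501-1000 bp, with 50.5 per Mb.

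Every gene that contains the summit counted as a host here, so an overlapping gene could own the TSS, as HmgZ did at HmgD. The nearest TSS belonged to a host for 332 of the 387 peaks (85.8%, exact 95% interval 81.9 to 89.1). The same was true of 80.2% of weak regions (78.7 to 81.6), 67.9% of distal intronic peaks and 71.1% of the bases of the eligible sequence. Most of these peaks, 216 (55.8%), lay downstream of the host TSS, as did 59.9% of weak regions and 54.5% of bases. A further 116 (29.97%, exact 95% interval 25.4 to 34.8) lay upstream of an inner TSS of the host, compared with 20.3% of weak regions (18.9 to 21.7), 13.9% of distal intronic peaks and 16.6% of bases. Peaks ahead of inner start sites were therefore the class that stood above the weak regions, with 61.2 per Mb (exact Poisson 95% interval 50.6 to 73.4) against 34.7 per Mb downstream of a host TSS (30.2 to 39.6). Weak regions had 335 per Mb ahead of inner start sites and 301 per Mb downstream of a host TSS.

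Start sites of genes that do not contain the summit were less often the nearest. Upstream of the TSS of another gene there were 38 peaks (9.82%), against 13.7% of weak regions and 18.9% of bases, or 17.6 per Mb. The strongest peak, in ush and upstream of cbt, was one of them. Downstream of the TSS of another gene there were 17 (4.39%), against 6.10% of weak regions, or 14.9 per Mb. The nearest TSS belonged to a protein-coding gene for 355 peaks, to a non-coding RNA gene for 28, to a tRNA gene for 3 (in Btk, EcR and Roc2) and to a snoRNA gene for 1 (in Dys). It had a thresholded peak of its own within 500 bp in 77 cases (19.9%, exact 95% interval 16.03 to 24.2), and in the remaining cases it had none. This share was not computed for weak regions or other peaks, so it cannot be called high or low.

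First introns held most of the peaks. By any transcript of a gene that contains the summit, 330 of 387 were in a first intron (85.3%, exact 95% interval 81.3 to 88.6). The share was 76.5% for weak regions (74.98 to 77.98), 65.0% for distal intronic peaks (60.6 to 69.3) and 64.5% for eligible bases. The distance limit itself favours first introns, which is why the weak regions, under the same limit, are the closer comparison. Counted on the longest transcript alone, 206 of the 310 summits inside it were in its intron 1 (66.5%), against 57.4% of weak regions and 47.9% of distal intronic peaks. Each peak was also given to 1 host, and its lowest intron number over that host's transcripts was taken. By this number, 321 peaks were in intron 1, 48 in intron 2 and 11 in intron 3. The other 7 were in introns 5, 11 and 13, the last of them in hiw, whose product is an E3 ubiquitin ligase of synapse growth.

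**Figure D4:**
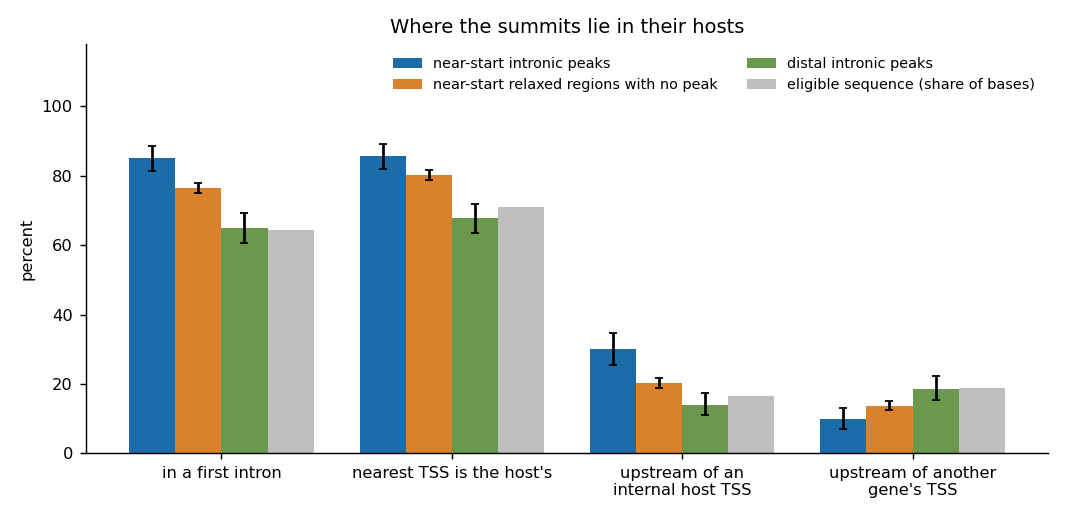
Percent of summits with each position in the host, for near-start intronic peaks, relaxed near-start intronic regions with no peak, distal intronic peaks and bases of eligible sequence; error bars are exact binomial 95% intervals. The share upstream of an inner host TSS was 29.97% for the peaks and 20.3% for relaxed regions with no peak. Every gene that contains the summit counts as a host.

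The host introns were long, with a median of 6456 bp, against 4671 bp for weak regions and 14018 bp for distal intronic peaks. Host genes had a median length of 18188 bp. Within its intron, the median summit was 1078 bp from the donor splice site and at 31.1% of the length. Introns shorter than 500 bp held 8 of the peaks (2.07%), against 7.15% of weak regions. These 8 were in CG11050, CG31635, CG1737, Hgsnat, Marf, Stt3A, Cirl and lncRNA:CR43337, with signals from 88.1 at the last to 1015 at CG11050. Intron lengths there were 140 bp at CG11050 and 143 bp at Cirl, shorter than the peaks themselves, so those peaks reached over exons on either side. The introns at Hgsnat (305 bp), Stt3A (384 bp), Marf (400 bp) and CG1737 (413 bp) were also shorter than their peaks.

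Close neighbours were common. Another thresholded peak lay within 2000 bp at 139 of the 387 (35.9%), against 35.2% of exonic peaks, 24.6% of intergenic peaks, 22.7% of distal intronic peaks, 21.5% of promoter peaks and 24.4% of all. The median distance to the nearest other peak was 4281 bp, against 3731 bp for exonic, 6395 bp for distal intronic, 8224 bp for promoter and 8350 bp for intergenic peaks. Near-start intronic peaks were thus about as crowded as exonic ones. The distance limit bears on the comparison with distal peaks, since it puts each near-start summit within 2000 bp of a TSS and each distal one farther away. A peak at that TSS can therefore be a close neighbour here, and in 77 cases the nearest TSS had a peak within 500 bp. The part of this in the difference was not tested. Of the 139, 112 (80.6%) had the nearest other summit inside the same host gene. At 21 of the 387 the neighbouring peak overlapped.

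The 387 peaks were spread over 329 host genes when each was given to 1 host. A single peak was present in 286 hosts, 35 had 2, and 8 had at least 3. The 43 hosts with 2 or more held 101 of the peaks. All but 3 of the peaks had a protein-coding host (99.2%), and 352 summits were inside 1 gene only (91.0%). These shares were close to those of weak regions, 98.4% and 92.6%, and of distal intronic peaks, 98.2% and 94.9%. CG1677, with 7 peaks, was the host with the most. It is a gene of 124709 bp on the X chromosome, and all of its peaks were in 1 intron of 73902 bp that contains further genes. Their nearest start sites were those of CBP, Dok, brk, CG42780 and unc-119, and none of CG1677 itself. brk encodes a transcriptional repressor of Dpp target genes, and Dok an adaptor of tyrosine kinase signalling. The signals of the CG1677 peaks ran from 83.7 to 199.1. The highest values, 199.1 and 166.8, lay above the upper quartile of the 387 peaks, 166.2.

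CHES-1-like, the gene of a Forkhead transcription factor, also on X, had 5 peaks from 79.9 to 159, all in first introns and 4 of them nearest to its own start sites. tou, whose product associates with the ISWI chromatin remodeler, had 4 from 82.7 to 254, of which 2 overlapped. NFAT, the fly gene of the NFAT transcription factor family, had 3 (492, 312 and 119). Its upper 2 lay 724 bp apart, upstream of the same inner TSS. HmgD had 3 peaks between 81.0 and 417, and its neighbour HmgZ contains them too. Both encode HMG-box proteins that bend DNA. CG9837 (402, 256 and 84.7), CG10543 (239, 141 and 106) and Tlk (132, 111 and 92.8), a chromatin-related protein kinase gene, had 3 each. In NFAT, HmgD and CG9837 the strongest peak was over 4 times the weakest, so peaks of 1 host were not of 1 strength.

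Host genes were described by role with 8 gene lists. Any gene with at least 1 base of eligible sequence could hold such a peak, and 355 of 9428 such genes did, counting every gene that contains the summit (3.77%). Genes differ in how much eligible sequence they have, so each share is given with the peaks per Mb of the list's eligible sequence, to be read beside the 33.9 per Mb overall. Weak regions, at 274 per Mb over all eligible sequence, differed between the lists too. They had 461 per Mb in chromatin and cofactor genes, 423 in receptors and ligands, 378 in cytoskeleton genes and 361 in transcription factor genes. Kinases and the like had 286, RNA-binding genes 276, adhesion genes 196 and channel genes 140. The lists were chosen with earlier results of these data known, and no test was run on them.

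Transcription factor genes held a peak in 20 of 128 cases (15.6%, exact 95% interval 9.81 to 23.1), with 29 peaks or 57.9 per Mb (exact Poisson 95% interval 38.8 to 83.1). The strongest were at ush, NFAT and Trl, and Mad (289) followed, whose product carries BMP signals into the nucleus. Of the 29 peaks, 8 were in CHES-1-like and NFAT. zfh1, a zinc-finger homeodomain gene, had 2 peaks of 282 and 127. The nuclear receptor genes EcR and Hr4 and the AP-1 gene kay were among the others, with 187, 113 and 145 as their strongest signals. ush counts in the list although its product is a cofactor.

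Kinases, phosphatases and GTPase regulators had 15 of 80 genes with a peak (18.8%, interval 10.9 to 29.0) and 53.8 peaks per Mb (32.4 to 84.1). Lk6 and for led them. Btk, a Tec-family tyrosine kinase gene, had 260.2 (132 in replicate 1 and 131 in replicate 3), and Raf, the MAP kinase kinase kinase of receptor tyrosine kinase signalling, had 2 peaks of 190 and 182. RNA-binding and translation control genes had 12 of 64 (18.8%, interval 10.1 to 30.5) and 50.2 per Mb (27.4 to 84.2). After mub, the strongest were larp at 190 and brat at 180, which both regulate mRNA translation, and Hrb27C at 147, an hnRNP gene. Both lists lay above the overall density, though the lower bounds of the intervals, 32.4 and 27.4, reached below 33.9. The elav peak (126) counts in the RNA-binding list and in the transcription factor list, although elav encodes an RNA-binding protein.

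Chromatin and cofactor genes had 10 of 80 with a peak (12.5%, interval 6.16 to 21.8). Their 16 peaks gave 151 per Mb (86.1 to 245), the highest density of the 8 lists, on 0.106 Mb of eligible sequence. Weak regions were also densest in this list, at 461 per Mb. Of the 16, 7 were in tou and HmgD. HmgZ is in the list too, with 4 peaks that include the 3 of HmgD and another at 97.4. HmgD and HmgZ thus both count among the 10 genes although they share peaks. The Polycomb group gene ph-p had 161 (98.8 in replicate 1 and 58.8 in replicate 3), the corepressor gene Sin3A 137 and Smr, also a corepressor gene, 117. Both replicates were level at Sin3A, with 68.7 in replicate 1 and 68.8 in replicate 3.

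The other lists had shares closer to the overall one, and densities below it. Cytoskeleton and scaffold genes had 6 of 68 (8.82%, interval 3.31 to 18.2) and 27.3 peaks per Mb (10.04 to 59.5). Among them were tsr, the cofilin gene, at 257, the dynein heavy chain gene Dhc64C at 120.1, the apical polarity gene crb at 117 and alpha-Spec, a spectrin gene, at 93.2. Receptors and ligands of developmental signalling had 5 of 62 (8.06%, interval 2.67 to 17.8) and 31.1 per Mb (10.09 to 72.5). They were InR, wit (184), a type II BMP receptor gene, the ligand genes Pvf3 (113) and ths (103) of the VEGF and FGF families, and ptc (88.0), the Hedgehog receptor gene. Adhesion and axon guidance genes had 4 of 85 (4.71%, interval 1.30 to 11.6) and 13.1 per Mb (4.25 to 30.5), an interval wholly below the overall 33.9 per Mb. These were cno, NetB (189), which encodes a Netrin, its receptor gene fra (128), and kirre (84.5 and 80.9), a gene of myoblast fusion. Ion channel, pump and synaptic genes had 4 of 83 (4.82%, interval 1.33 to 11.9) and 13.7 per Mb (3.73 to 35.1). The potassium channel genes Irk1 (251.5 and 115.2) and KCNQ (228) were 2 of them, and Itpr and Nmdar1, which overlap, shared a single peak of 108.8.

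**Figure D5:**
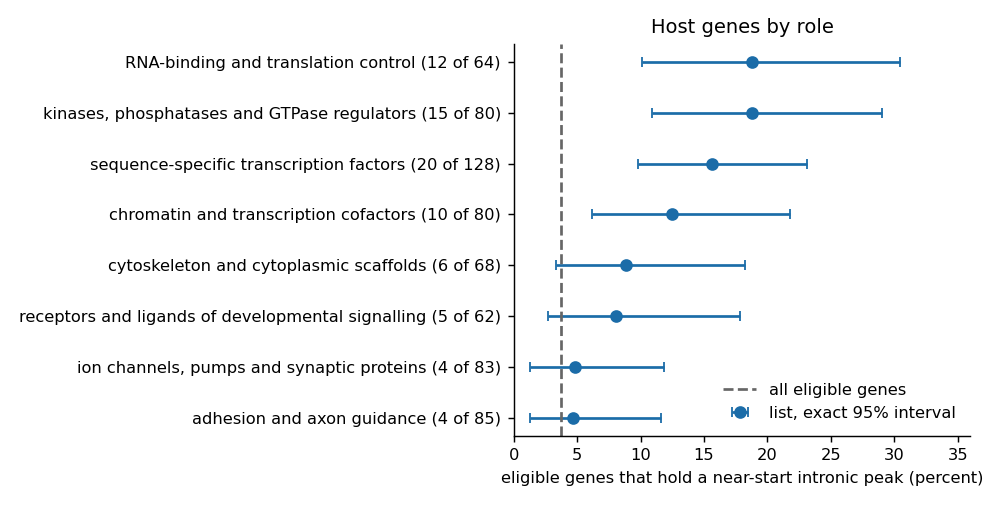
Percent of eligible genes of each role list that contain a near-start intronic peak, with exact binomial 95% intervals; the dashed line is the 3.77% of all 9428 eligible genes. Kinases and RNA-binding genes are highest at 18.8%, and adhesion and channel genes lie near the dashed line in share, at 4.71% and 4.82%.

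Short consensus sites were looked for on either strand, up to 50 bp from each summit, as exact matches of 17 letter patterns. The Forkhead core TGTTTAC was at 24 of the 387 summits (6.20%, exact 95% interval 4.01 to 9.09). It was at 3.42% of the weak regions (2.81 to 4.11), 8.79% of distal intronic peaks, 4.09% of promoter peaks and 5.38% of all peaks. Near-start peaks thus lay between promoter and distal peaks, and their interval overlapped that of the weak regions slightly. GC content differed in the same comparison, with a mean of 38.1% (SD 6.26, n = 387) at the peaks and 42.1% (SD 7.30, n = 3133) at the weak regions, over 100 bp on either side of the summit, and its part in the shares of sites was not tested. Median signal was 128.4 for the 24 peaks with the core and 114.7 for the 363 without. The strongest of the 24 were Lk6, CG9663, Trl, Csk and SCaMC (287), the last of these a gene with 184.8 in replicate 1 and 103.7 in replicate 3. A match to letters is a description and does not show that a factor was bound.

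The 3 strongest peaks with a copy within 30 bp of the summit are shown in windows of 61 bases of the plus strand, where capitals mark the core as its reverse complement.
CG9663, chr2L:3302142-3302202: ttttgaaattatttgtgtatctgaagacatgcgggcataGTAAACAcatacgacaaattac
Trl, chr3L:14759452-14759512: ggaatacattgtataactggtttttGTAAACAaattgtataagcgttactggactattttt
SCaMC, chr3L:12407119-12407179: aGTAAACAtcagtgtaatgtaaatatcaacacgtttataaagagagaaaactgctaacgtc

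Some sites of promoters were rare at these peaks, but the TATA box was not. TATCGATA, the DNA replication-related element that the factor Dref recognises, was at 1 summit (0.258%, exact 95% interval 0.00654 to 1.43), in Stt3A (135.5). It was at 0.0958% of weak regions, 3.75% of promoter peaks (2.83 to 4.85) and 2.10% of all peaks. Among distal intronic peaks it was at 0 of 489, which allows a share of up to 0.613%. The Ohler motif 1 core GGTCACAC, another core promoter sequence, was at 1 summit, in Hgsnat (150), against 2.52% of promoter peaks. CGATA, part of the DNA replication-related element, was at 9.56% (interval 6.82 to 12.9). It was at 11.7% of weak regions, 9.82% of distal intronic peaks and 21.0% of promoter peaks (18.9 to 23.2). The TATA box TATAAAA was at 7.49% (interval 5.08 to 10.6), against 4.09% of weak regions (3.42 to 4.84). It was at 6.13% of distal intronic peaks (4.18 to 8.64), 6.54% of promoter peaks and 6.34% of all peaks. Its share was thus similar in these classes of peaks, near to a TSS or far from one. Median signal of the 29 peaks with a TATA box was 159, against 114 for the other 358.

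Several other patterns differed less. The GATA core TGATAA was at 11.1% of the near-start peaks (interval 8.16 to 14.7) and 8.46% of weak regions. The E-box CATATG was at 6.98% of the peaks (4.65 to 9.99) and 4.60% of weak regions, and the E-box CAGCTG at 4.39% of the peaks and 4.56% of weak regions. The homeodomain core TAATTA was at 7.49% of the peaks and 5.75% of weak regions, and the Sox core ACAAT at 30.5% of the peaks (25.9 to 35.3) and 25.9% of weak regions (24.3 to 27.4). Intervals of the peaks and the weak regions overlapped for each of these. Distal intronic peaks had 11.5% for the GATA core, 4.70% for CATATG and 3.68% for CAGCTG. They had 8.18% for the homeodomain core and 29.4% for the Sox core. The GAGA repeat GAGAGAG was at 3.10% of the peaks and 2.59% of weak regions, and the CA repeat CACACACA at 3.10% of the peaks and 4.50% of weak regions. The poly-A run AAAAAAAA was at 5.43% of the peaks and 5.84% of weak regions, and the STAT site TTCNNNGAA at 2.58% of the peaks and 3.13% of weak regions. Rare sites were the Zelda site CAGGTAG at 1 summit, in mbc (132), and the Su(H) site GTGGGAA at 3, in Dys (129.9), CG8745 (122) and Socs36E (103). The ETS core CCGGAAG was at 0 of 387, which allows a share of up to 0.775%, against 0.287% of weak regions.

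On the X chromosome the near-start intronic peaks were denser than on the autosomes. X had 95, or 43.2 per Mb of eligible sequence (exact Poisson 95% interval 34.9 to 52.8), and the autosomes had 292, or 31.6 per Mb (28.1 to 35.5). These intervals overlapped slightly. Weak regions went the other way, with 233 per Mb on X and 284 per Mb on the autosomes, so that the share of near-start regions that were peaks was 15.6% on X (12.8 to 18.8) and 10.03% on the autosomes (8.96 to 11.2). Counted among all peaks, near-start introns held 20.3% of the 468 peaks on X (16.7 to 24.2) and 13.01% of the 2244 on the autosomes (11.6 to 14.5). All peaks together were as dense on X, at 19.9 per Mb of the arm, as on the autosomes, at 20.3 per Mb. Without CG1677 and CHES-1-like, which hold 12 of the X peaks, and without their 0.0305 Mb of eligible sequence, the density on X was 38.2 per Mb (30.5 to 47.4). That interval holds the autosomal 31.6 per Mb. Leaving out the 12 peaks alone gave 37.7 per Mb. The X shares above, 15.6% and 20.3%, include these 12 peaks. Median signal was 116.5 on X and 114.9 on the autosomes. Between the autosomal arms, density ran from 29.0 per Mb on 2L to 33.6 on 2R, and chromosome 4 had 1 peak in 0.129 Mb. Embryos of both sexes were pooled, and X copy number was not accounted for in these values.

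The distance limits cut through a continuous range. Just inside the near limit were a peak in CG10543 at 502 bp (106) and one in aru at 505 bp (181), and just outside were those in CG5854 and rdx, both at 500 bp (99.0 and 84.2). At the far limit, CG3764 at 1987 bp (223) and CHES-1-like at 1997 bp (97.7) were inside, while hiw at 2013 bp (196) and CG1677 at 2018 bp (131) were outside. Signals on the inner side of the limits, 97.7 to 223, spanned about the same values as those outside, 84.2 to 196.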

How the data were processed

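The data are lists of ChIP-seq regions from 2 biological replicates of 1 group. The authors deposited a thresholded list, kept by its irreproducible discovery rate (IDR, optimal set), and relaxed lists for each replicate and for both pooled, in dm3 and dm6, per the file headers and notes; the dm6 lists were used. The deposited signal of each region has no stated unit or normalization. Which aligner, peak caller and settings were used is not given in the sources used here. Read depth is unknown, because lists hold no counts.

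Summits were placed with the deposited offset and classed with Ensembl release 115 on the Release 6 genome, without transposons; a TSS is the 5′ end of any transcript. Distances run to the TSS along the strand of its gene. The replicate signal of a peak is that of the strongest relaxed region sharing at least 1 bp. Python 3.11.15, numpy 2.4.6, scipy 1.17.1 and matplotlib 3.10.9 were used. Intervals are exact (Clopper-Pearson or Poisson, 95%), and the limit for 0 counts is 3 counts. The classing was tested on simulated regions. With 1 group, no test between groups was possible and none was run.

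Members, 8 gene lists and 17 sites were chosen with earlier results of these data known. Genes are named by rule: hosts of the 25 strongest peaks, hosts with 3 or more, up to 4 per list, the 4 highest and 4 lowest replicate ratios, those nearest the distance limits and every item of a count of 5 or fewer. Others (brk, Dok, CBP, CG42780, unc-119, zfh1, EcR, Hr4, kay, elav, SCaMC, Marf, CG1737, Cirl, lncRNA:CR43337, cbt) were chosen after their values were seen. Alternatives were other TSS sets, the RefSeq annotation, stronger peaks, 1 replicate alone, other overlap rules, other windows and protein-coding genes.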

Additional observations from a re-analysis of the deposited data

How the results depend on the processing

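Over 45 alternatives to the values reported, 17 moved them by more than a set tolerance: a count by over 1.5 times, a share or density beyond the exact 95% interval of its main value, or a median by over 1 SD. Among the moved values, 12 are shares of sites in a wider window, as wider windows hold more bases. The share of peaks whose nearest TSS belongs to a host was 72.4% with only the 5′ end of each gene as a TSS. It was 92.1% with only TSSs of protein-coding genes. The number of peaks was 330 in the first setting and 369 in the second. The stronger 50% of the thresholded list held 193 near-start intronic peaks. In the longest transcript alone, the first-intron share was 66.5%. With overlap set as summits no more than 100 bp apart, 10.7% of the near-start relaxed regions matched a peak. With 100 bp on either side of the summit, the Forkhead core was at 10.9% of the peaks and 7.37% of the weak regions, and the shares of 15 of 17 sites were higher than with 50 bp. RefSeq gave 387 peaks, and 387 were shared with those from Ensembl. With the top 2712 regions of a single replicate, the number of peaks was 369 to 402, the first-intron share 84.1% to 85.4% and the host TSS share 84.3% to 84.6%. Both densities on X without the hosts of 5 or more peaks (37.7 and 38.2 per Mb) and replicate ratios without shared regions (median log2 0.20) were alternatives added after seeing the data. No paired analysis was possible because there is only 1 group. Unknown read depth limits what can be said of weak regions.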
